A study of Mus musculus with 12 samples.

Results

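The livers of 6 Swiss Webster mice, an outbred laboratory strain, were compared 4 h after an intraperitoneal injection, 3 from mice given TDI-011536 (called LKI-2 in the submitters' labels) at 200 mg/kg and 3 from control mice. The mice were 6 to 8 weeks old. The labels list no agent for the controls although their treatment text describes the injection for every animal, and the study's text states that controls received the vehicle, Kolliphor HS 15. The groups rest on the sample names. Each liver was homogenized whole and its polyadenylated RNA was sequenced as 1 library, so that a change in the makeup of the liver's cells and a change of RNA within a cell type cannot be told apart. The hearts of the same 6 mice were sequenced as well and serve here only as a reference. The values are estimated reads per transcript, where Salmon splits a read between the transcripts it could come from. Of 51884 transcripts in each table, 20599 had 10 or more reads in at least 3 of the 6 livers, and these are the transcripts described here. They held 98.9% to 99.8% of the reads of a liver, and 17911 of them had a read in each of the 6.

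The compound blocks Lats1 and Lats2, the last kinases of the Hippo pathway. Lats kinases phosphorylate the coactivators Yap and Taz, which keeps them out of the nucleus, and unphosphorylated Yap and Taz act with Tead factors to raise transcription of target genes. In the liver the pathway is known for restraining organ size and the growth of hepatocytes and bile duct cells. No file used here ties a transcript identifier to a gene, so no Yap target, liver marker or cell type could be looked up, and the livers could not be checked against liver marker genes. The comparison therefore asks how large the response of the liver transcriptome was, which kinds of transcript it reached, and how firmly each part of it stood against the spread between mice.

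The total of estimated reads ranged from 24575658 to 30280943 in control and from 26902197 to 31243782 in treated livers. Spearman's rank correlation across the 20599 transcripts was 0.90 to 0.91 between livers of the same group, 0.86 to 0.87 between control and treated livers, and 0.53 to 0.58 between a liver and a heart. These correlations are over transcripts, which are not independent replicates, and libraries of 1 organ share its abundant transcripts.

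The liver of control mouse 2 stood apart in a small set of transcripts, which was chosen after the values were seen. For 11 transcripts with a mean of at least 1 TPM (reads divided by transcript length and scaled to a fixed library total), this library held over 90% of the TMM-scaled counts of the 6 livers (TMM, an edgeR scaling, is described with the test), and no other liver held any transcript to that extent. Counted by TPM instead there were 15 such transcripts, again in control liver 2 alone. The 11 together took 640 CPM (reads scaled to a fixed library total, whatever the length) in control liver 2. They took 29.9 CPM in control liver 1 and 21.9 in control liver 3, and from 0.864 to 2.05 in the treated livers. All 3 controls thus lay above all 3 treated livers, with 1 control far above the other 2. In the hearts the same transcripts took from 69509 to 75876 CPM. In control liver 2 each of the 11, of 633 to 2353 nt, stood at 0.765% to 0.949% of its level in the heart of the same mouse. As a group they stood at 0.845% of the heart level in control liver 2, 0.0394% in control liver 1 and 0.0289% in control liver 3, and at 0.00117% to 0.00295% in treated livers. Their fitted log2 fold changes lay between -7.96 and -6.07, and none passed the test, with adjusted p from 0.0610 to 0.0985 (edgeR), although each had an unadjusted p under 0.05. DESeq2 and limma-voom called 0 of them as well. DESeq2 gave no adjusted p for 131 of all transcripts, which count as not called, and whether the 11 were among those was not examined. Without control liver 2, 3 of the 11 met the read minimum, with log2 fold changes of -4.40 to -3.91, and 1 of these was called lower. The others had reached the minimum in the 3 controls alone, so they could enter the test only by being higher there. Their separation and fold changes say nothing of how common such falls were. Subtracting from each liver the reads that these shares of the mouse's heart would give gave 1247 higher and 695 lower transcripts. Of the transcripts called without the subtraction and given below, 1231 higher and 683 lower were called after it as well. The shares came from the same 11 transcripts and were at most 0.845%, so the subtraction cannot decide where these reads came from. The source of the reads was not tested.

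After TDI-011536, 1254 transcripts were higher and 693 lower in the liver, as called by the quasi-likelihood test of edgeR with TMM scaling and a Benjamini-Hochberg adjusted p under 0.05. The mice were separate animals per the labels, so the tests measure the spread between mice. These counts are 6.09% and 3.36% of the 20599 tested. The median log2 fold change was 1.28 among the higher and -1.24 among the lower transcripts. Changes of over 2-fold, leaving aside transcripts without a read in 1 group, made up 834 of the rises and 394 of the falls. Among them, 60 rises reached 10 reads in the treated livers alone and 44 falls in the controls alone, so these had to differ. In addition, 23 of the higher transcripts had no read in any control liver and 43 of the lower ones no read in any treated liver, and for these the fitted fold is not a measurement. In TMM-scaled counts all 3 treated livers lay above all 3 controls for 3636 transcripts (17.7%) and below them for 3495 (17%), and each called transcript was among these. In counts scaled by library totals alone these were 10.3% and 30.3%.

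The direction of the response depended on the scaling. TMM sets the bulk of transcripts level between libraries, and its factors were 1.10 to 1.12 in controls and 0.853 to 0.950 in treated livers. With library totals alone, tried after the data were seen, 774 transcripts were higher and 1868 lower (3.76% and 9.07%), and the median log2 fold change of all transcripts moved from -0.02 to -0.31. All fold changes given here are therefore relative to the bulk of transcripts. The share of reads in the most abundant transcripts was compared as well. The 10 most abundant transcripts of a library took 21.3%, 19.2% and 22.0% of its reads in the control livers and 25.3%, 25.9% and 23.4% in the treated livers. The 3 treated livers lay above the 3 controls, by 4.02 percentage points in the mean (20.8% ± 1.42 against 24.9% ± 1.32, SD, n = 3 each). An exact two-sided permutation test gave p = 0.1, the smallest that 3 against 3 allows, and 0.25 after adjustment over 5 such measures. The 100 most abundant took 48.1% to 49.7% in control and 51.6% to 54.6% in treated livers. By share of TPM in place of reads, the 10 most abundant took 38.3%, 34.7% and 38.4% in control livers. In treated livers they took 42.7%, 42.4% and 38.1%, so the groups overlapped by that measure.

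**Figure D1:**
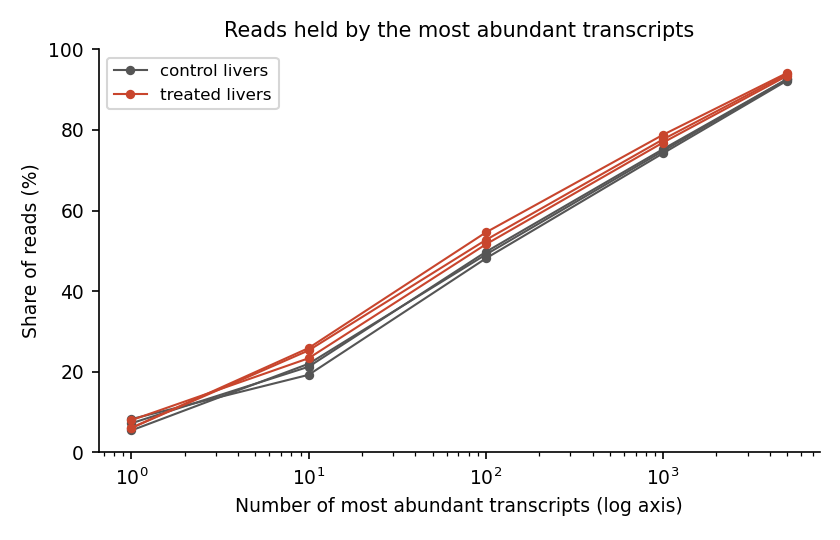
Share of a liver's reads (percent) held by its most abundant transcripts, against how many are counted (log axis), with 1 line per library, controls in gray and treated in red. At 10 and at 100 transcripts the 3 treated livers lie above the 3 controls, with 51.6% to 54.6% against 48.1% to 49.7% at 100.

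The 10 transcripts with the largest gain in share, picked by that gain and so described without a test, together took 11.7%, 7.57% and 13.4% of reads in control livers and 17.7%, 18.5% and 12.9% in treated livers. Control liver 3 lay above treated liver 3, so the groups overlapped for this sum. Of these 10, 5 were among the called transcripts, beside 9.45% of all transcripts tested. Picking by gain favors called transcripts, so this count is no result about them.

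The other measures of a library moved less. From 26208 to 27389 transcripts had at least 1 read in control livers, and from 25711 to 26849 in treated livers, where the groups overlapped (exact permutation p = 0.3, two-sided). Transcripts of 3000 nt or longer took 23.9% ± 0.830 of reads in control and 23.3% ± 0.933 in treated livers (SD, n = 3 each; exact permutation p = 0.5). Transcripts with whole counts took 19.8% ± 0.554 in control and 18.5% ± 0.680 in treated livers, without overlap (exact permutation p = 0.1, adjusted 0.25 over the 5 measures).

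Transcripts differed in whether their counts were whole. A count that is whole in each library (within 1e-06) was taken to have had no read divided, which the counts alone cannot show. In all 6 livers 3331 transcripts had whole counts, while 17268, called divided here, did not. Values of 100000 reads or more are given without decimals, and 35 of the 17268 are counted there only because it is unknown whether they were whole. Among whole-count transcripts 319 were higher and 165 lower, 14.5% in all, beside 9.45% over all transcripts tested. Fitted alone, the whole-count transcripts gave 570 higher and 497 lower. Among those with divided reads 935 were higher and 528 lower, 8.47% in all. The whole-count transcripts varied less between mice, with a median coefficient of variation of 0.136 in control and 0.153 in treated livers, against 0.251 and 0.289 where reads were divided. They were also more abundant, at a median of 5.79 TPM against 1.70. The shares called, whole against divided, were 5.09% and 3.44% under 1 TPM and 17.0% and 10.2% at 1 to 10 TPM. They were 18.6% and 16.6% at 10 to 100, 13.3% and 7.89% at 100 to 1000, and 8.70% and 8.82% at 1000 TPM or more. The part that level played in the share of calls was not tested. The extremes lay with divided reads. The 3 largest positive log2 fold changes there that met the conditions for naming a transcript were 11.19 to 12.51, and 1 of the 3 passed with limma-voom. The 3 largest falls there were -11.23 to -10.32, 2 of them without a read in 1 group, and 0 passed with limma-voom. The 10 largest among whole-count transcripts under the same conditions were 4.21 to 6.83, of which 4 passed with limma-voom, and the 10 largest falls were -3.90 to -3.05, of which 8 passed. These extremes include transcripts that met the read minimum through 1 group alone, such as the fall of -3.90 described below. Transcripts of that kind had to differ, so the sizes and the numbers passing say nothing of how common such changes were.

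**Figure D2:**
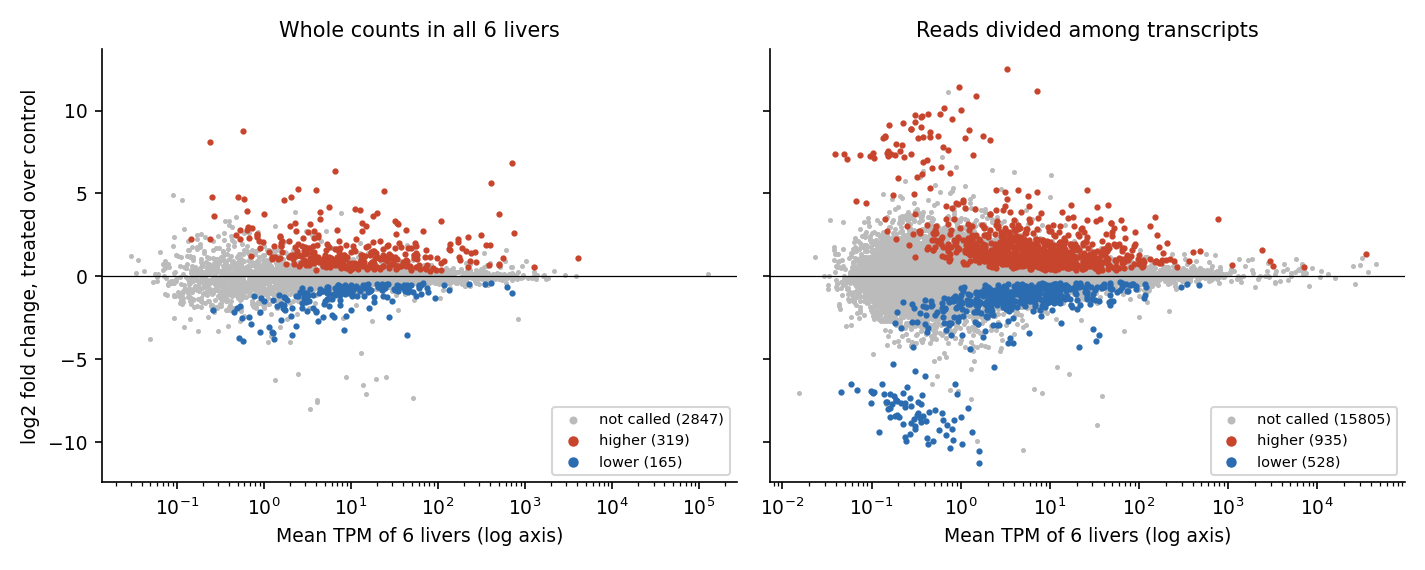
The log2 fold change of each of the 20599 transcripts, treated over control, against its mean TPM in the 6 livers (log axis), for 3331 transcripts with whole counts (left) and 17268 with divided reads (right); red points are higher and blue points lower at an adjusted p under 0.05. Called transcripts with fold changes beyond 10 in either direction on the log2 scale are seen where reads were divided, and the gray points of the left panel between -7.96 and -6.07 include transcripts held over 90% by control liver 2.

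The named transcripts had to average 1 CPM or more. The largest rise among whole-count transcripts that did so was that of uc007hzh.2, a transcript of 1520 nt. It had 578, 480 and 520 reads in the control livers and 47327, 49261 and 66005 in the treated livers. Its level went from 15.1 ± 1.87 TPM to 1424 ± 262 TPM (SD, n = 3 each), from a modest level to one reached by few transcripts of this organ. Each treated liver lay far above each control. The log2 fold change was 6.83 (standard error 0.21, adjusted p = 0.000858, edgeR), and the call held without any 1 of the 6 livers. In the hearts of the same mice it had at most 1 read in a control and 0, 5 and 8 reads in the treated mice, too few to be tested in that organ alone. Its response in the heart minus that in the liver was -3.29 on the log2 scale and did not pass the test of the difference (adjusted p = 0.696, edgeR).

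The rise with the lowest p was that of uc009mhc.2, a transcript of 1576 nt. It had 823, 747 and 600 reads in the control livers and 30430, 31279 and 33354 in the treated livers. Its level was 19.7 ± 2.55 TPM in control and 798 ± 40.3 TPM in treated livers (SD, n = 3 each). The treated livers differed little among themselves and did not overlap the controls. The log2 fold change was 5.62 (standard error 0.16, adjusted p = 0.000858, edgeR), and this call also held without any 1 liver. In the hearts it had 312, 155 and 283 reads in control and 372, 793 and 336 in treated mice, where it did not pass (log2 fold change 1.29, standard error 0.39, adjusted p = 0.295, edgeR). The heart minus liver difference was -4.34 on the log2 scale (adjusted p = 0.00183, edgeR). With the animal as a block, since both organs came from the same mouse, the adjusted p was 0.0626.

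Among the falls, uc007wsd.1, of 2289 nt, had the lowest adjusted p. It had 2704, 2922 and 2197 reads in the control livers and 723, 767 and 954 in the treated livers. Its level was 46.2 ± 4.09 TPM in control and 13.3 ± 1.91 TPM in treated livers (SD, n = 3 each). The groups were well separated and each was tight. The log2 fold change was -1.51 (standard error 0.10, adjusted p = 0.00339, edgeR), and the call held without any 1 liver. In the hearts it had 1893, 1927 and 1936 reads in control and 1209, 1306 and 865 in treated mice, of which the last came from the shallowest heart library. There the log2 fold change was -0.45 (standard error 0.07) and did not pass (adjusted p = 0.0743, edgeR). The heart minus liver difference was 1.05 (adjusted p = 0.00323, edgeR), and 0.0924 was the adjusted p with the animal as a block.

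The largest fall that met the same conditions, that of uc009dqw.2 (4007 nt), was of another kind. It had 41, 80 and 207 reads in the control livers and 6, 7 and 7 in the treated livers, so the controls differed among themselves by far more than the treated livers did. Its level was 1.08 ± 0.917 TPM in control and 0.0592 ± 0.00292 TPM in treated livers (SD, n = 3 each). The groups did not overlap, and the log2 fold change was -3.90 (standard error 0.76, adjusted p = 0.0333, edgeR). It reached the minimum of 10 reads in the 3 control livers alone, so that it could enter the test only by being higher there, and its fall says nothing of how common such falls were. It did not pass with limma-voom (adjusted p = 0.359). Without any 1 treated liver its adjusted p was 0.0935 to 0.105 (edgeR), and without any 1 control it missed the minimum and was not tested.

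**Figure D3:**
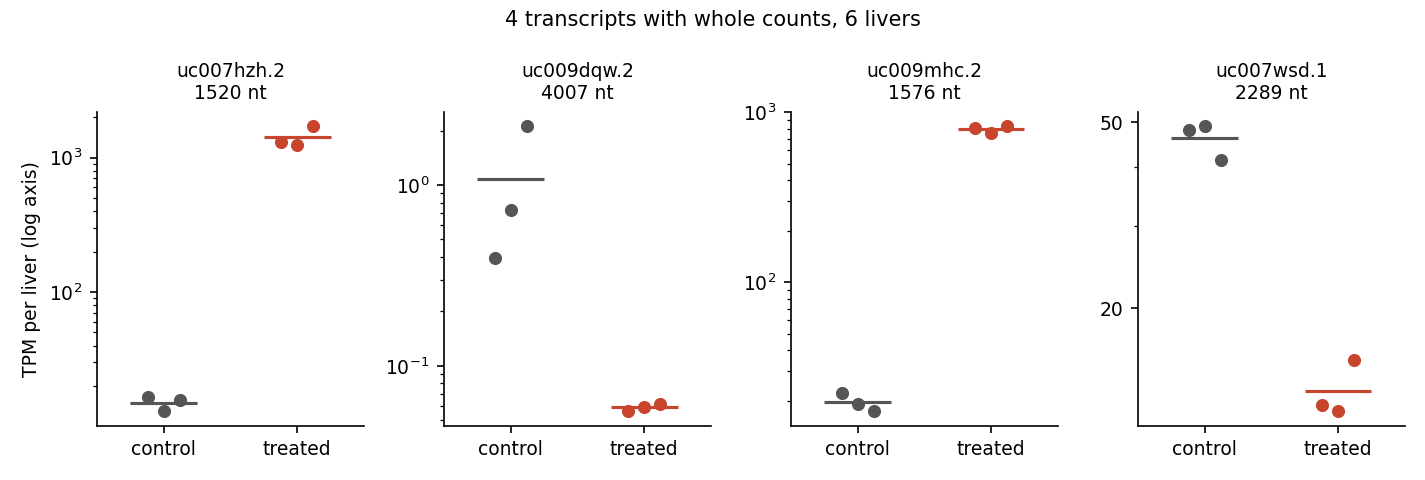
TPM of 4 transcripts with whole counts in each of the 3 control (gray) and 3 treated (red) livers, on log axes that differ between panels; points are libraries and bars are group means. In uc007hzh.2, uc009mhc.2 and uc007wsd.1 the points of a group lie close together, whereas the controls of uc009dqw.2 spread from 0.395 to 2.12 TPM.

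The most abundant liver transcripts were called about as often as transcripts in general. The 10 with the highest mean TPM ranged from 13069 to 127647 TPM and from 123 to 2061 nt. Their log2 fold changes ran from -0.45 to 1.35, with 8 of the 10 positive, and 1 passed the test, a rise. Of the 10, uc033jng.1 had whole counts, while 7 had too many reads for this to be known. The transcript uc033jng.1 is 123 nt long, and its short effective length gives a high TPM. It had 19913, 23441 and 14299 reads in control and 17038, 18322 and 20145 in treated livers, where the treated lay within the range of the controls. Its log2 fold change was 0.13 (standard error 0.13, adjusted p = 0.632, edgeR). Of the 100 most abundant transcripts 8 passed, each a rise, and of the 1000 most abundant 81 were higher and 22 lower (10.3% in all), beside 9.45% over all transcripts.

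The share of called transcripts was highest at intermediate levels. Of 7407 transcripts with a mean under 1 TPM, 1.84% were higher and 1.77% lower. Of these 136 higher and 131 lower transcripts, 21 had no read in any control and 41 none in any treated liver. Limma-voom called 108 of them in the same direction. Transcripts without a read in 1 group passed the read minimum through the other group alone, so the shares of this class are not a rate of response. Of 8867 at 1 to 10 TPM these were 7.14% and 4.07%, and of 3538 at 10 to 100 TPM they were 11.9% and 5.29%. Of 696 at 100 to 1000 TPM, 8.05% were higher and 2.01% lower. Of 91 at 1000 TPM or more, 8 passed, each a rise. The spread between mice was widest under 1 TPM. The median coefficient of variation in control livers was 0.469 under 1 TPM, 0.189 at 1 to 10, 0.116 at 10 to 100 and 0.117 at 100 to 1000 TPM. In treated livers it was 0.517, 0.220, 0.132 and 0.130, above that of the controls in each of these 4 classes, and at 1000 TPM or more it was 0.162 in control and 0.155 in treated livers. The part of this spread in the shares called was not tested.

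Longer transcripts were called more often. Over all transcripts 6.09% were higher and 3.36% lower. Of 337 transcripts under 500 nt, 3 were higher and 1 lower (0.890% and 0.297%). Of 1415 at 500 to 1000 nt, 37 were higher and 17 lower. The shares were 6.35% higher and 3.75% lower at 2000 to 4000 nt, and 7.82% and 3.56% at 4000 to 8000 nt. They were 8.43% and 3.55% for the 676 transcripts of 8000 nt or more, so the lower share did not grow beyond 4000 nt. At an equal TPM a longer transcript has more reads, and the part of read depth in this order was not tested.

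**Figure D4:**
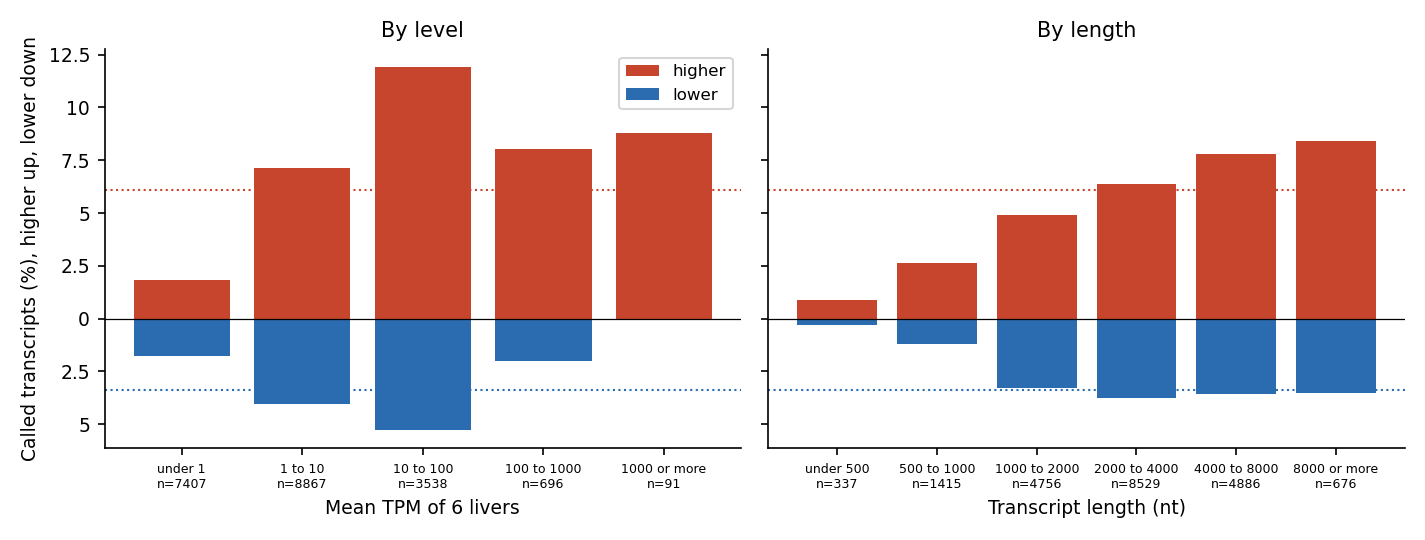
Share of transcripts called (percent) in classes of mean TPM (left) and length in nt (right), higher ones in red above zero and lower ones in blue below it; dotted lines give the shares over all 20599 transcripts, 6.09% and 3.36%. The share of higher transcripts peaks at 11.9% for 10 to 100 TPM and goes from 0.890% under 500 nt to 8.43% at 8000 nt or more. Transcripts that reached the read minimum in 1 group alone are included.

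Fold changes as a whole shifted with length from 500 nt up. The median log2 difference between treated and control livers was taken over the 14712 transcripts with 10 or more reads in all 6 livers. It was -0.09 at 500 to 1000 nt, -0.06 at 1000 to 2000 nt and 0.00 at 2000 to 4000 nt. At 4000 to 8000 nt it was 0.10 and at 8000 nt or more 0.12. The 247 transcripts under 500 nt, at -0.06, did not follow this order. The treated livers taken singly stood at 0.054, 0.159 and 0.0857 for 4000 to 8000 nt. Each control, set against the other 2 controls and so against another reference, stood at 0.0012, 0.048 and -0.015, the highest of them close to the lowest treated liver. At 8000 nt or more the treated livers stood at 0.06, 0.23 and 0.18 and the controls at -0.02, 0.03 and 0.02. Below 1000 nt the livers did not divide by treatment. At 500 to 1000 nt treated liver 1 stood at 0.08 and the other two at -0.18 and -0.15, while the controls ran from -0.14 to 0.16. Whole-count transcripts gave a like order, from -0.14 at 500 to 1000 nt to 0.14 at 8000 nt or more, with -0.06 under 500 nt. Whether RNA integrity or library preparation differed between these livers was not tested.

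**Figure D5:**
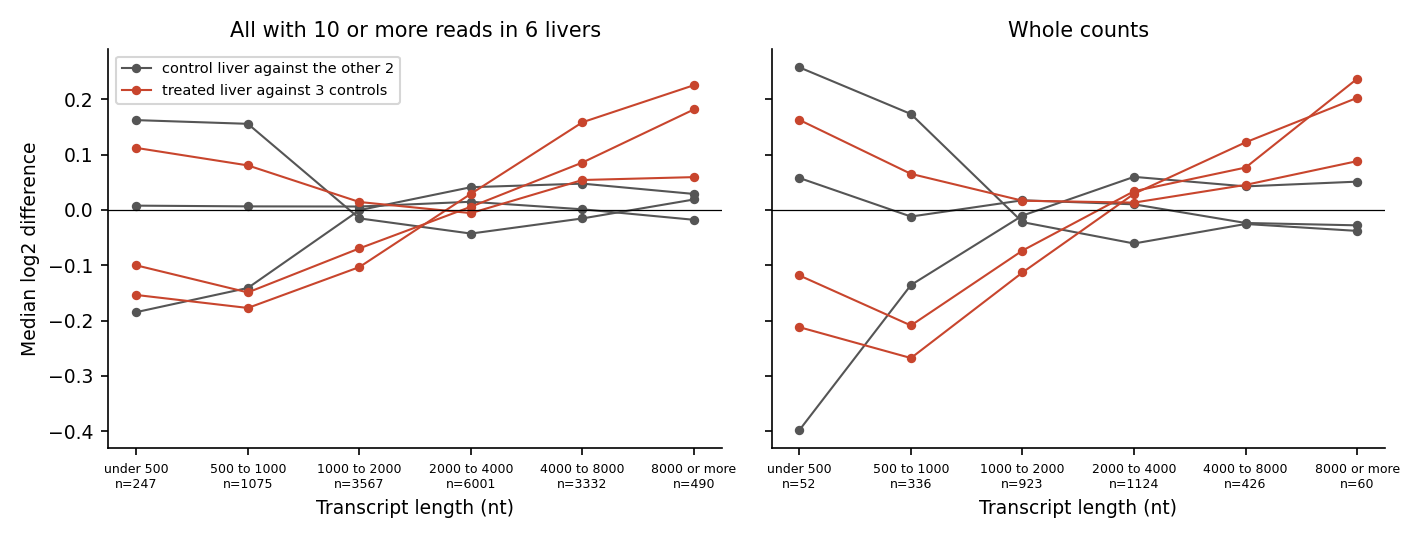
Median log2 difference by class of transcript length in nt, for each treated liver against the mean of 3 controls (red) and each control against the mean of the other 2 (gray), over 14712 transcripts (left) and those with whole counts (right). At 8000 nt or more the red lines lie above the gray ones and at 4000 to 8000 nt the lowest red point is close to the highest gray one, whereas under 1000 nt the colors mix and treated liver 1 lies apart from the other two.

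The transcripts fell into classes by where they had reads. Of the 20599, 14712 had 10 or more reads in all 6 livers, and of these 1144 were higher and 588 lower. Another 170 reached 10 reads in the 3 treated livers alone and 286 in the 3 controls alone. These passed the minimum through 1 group only and had to differ, so their 83 and 87 calls say nothing of how common a response was. The remaining 5431 reached 10 reads in another 3 to 5 livers, with 27 higher and 18 lower (0.497% and 0.331%). Their median level was 0.386 TPM, and their median coefficient of variation was 0.812 in control and 0.868 in treated livers.

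How firmly a call stood differed widely. DESeq2's Wald test called each of the 1254 higher and 693 lower transcripts in the same direction, within its longer lists of 2311 and 1692, or 11.2% and 8.21% of those tested. Limma-voom called 1123 and 577 of them, in lists of 1238 and 712, or 6.01% and 3.46%. Leaving out 1 liver at a time, 338 higher and 103 lower transcripts were called in all 6 fits, and 270 higher and 228 lower ones in none, those that missed the read minimum in a smaller fit included. Each of the 6 livers moved the number of higher transcripts by over 1.5 times, to 608, 456 and 621 without control livers 1, 2 and 3 and to 830, 663 and 568 without treated livers 1, 2 and 3. The number of lower transcripts went to 212, 120, 198, 418, 391 and 299 in the same order. Both counts were lowest without control liver 2, in which the heart-abundant transcripts were highest, and a link between these was not tested. Fits of 5 livers have fewer mice, so smaller counts are partly a matter of their construction.

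In the hearts of the same mice 0.429% of transcripts were higher and 0.104% lower by the same test, counts that also depend on the spread between hearts. Of the 1254 transcripts higher in the liver, 1131 were tested in the heart, where 37 passed, each in the same direction. Their median log2 fold change was 1.23 in the liver and 0.18 in the heart. Of the 693 lower in the liver, 604 were tested in the heart, where 1 was lower and 3 higher, with medians of -1.16 and -0.19. Transcripts picked for a change in the liver are bound to show a larger one there, so these medians are a description. In a fit of all 12 libraries, the heart minus liver difference in response passed the test for 279 transcripts above 0 and 450 below it (1.06% and 1.71% of 26320 tested, edgeR). With the animal as a block 3 and 10 passed, while 2589 in all had an unadjusted p under 0.05.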

How the data were processed

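RNA of 6 livers and, for reference, 6 hearts was analysed. The submitters' notes list Salmon 0.8.2, the build mm10 and DESeq2 1.20.0. Salmon's options, any trimming and the transcript release were not found in these sources. The deposited values are estimated counts per transcript, not normalized, in 2 tables a library of which the first was used. TPM was computed here from these counts and the effective lengths.

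Counts were rounded, and transcripts with 10 or more reads in at least 3 of 6 livers were tested with edgeR 4.0.16 (TMM, quasi-likelihood, 6 livers, adjusted p under 0.05). The standard error is the log2 fold change over the square root of F. Limma 3.58.1, DESeq2 1.42.0, R 4.3.3, Python 3.11.15, SciPy 1.17.1 and Matplotlib 3.10.9 were used otherwise. A count was called whole within 1e-06 and below 100000 reads, since larger values carry no decimals. Length classes were compared on log2(CPM + 0.5), with CPM scaled by TMM. The interaction of organ and treatment was tested over 12 libraries. Fits were tested on simulated data.

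Named transcripts passed the test, kept whole counts, did not overlap between groups and averaged 1 CPM or more. The rule set earlier named more, with gene symbols if available. Because identifiers could not be tied to genes, only the largest change and the lowest adjusted p each way are printed, with the most abundant whole-count transcript, and gene lists were not used. Members and tests were chosen with earlier results of these data known. Totals of 24575658 to 31243782 reads set the precision. Alternatives were other scaling, filters, tests, tables, blocks and fits without 1 library.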

Additional observations from a re-analysis of the deposited data

Results flagged for a closer look

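For 279 transcripts the heart minus liver difference in response to the compound lay above 0, and for 450 below 0, by edgeR's test of that difference. The named transcripts uc009mhc.2 and uc007wsd.1 were among them, with differences on the log2 scale of -4.34 and 1.05. Both organs came from the same mice, which this fit did not take into account. With the animal as a block 3 transcripts passed above 0 and 10 below it, and neither named transcript passed.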

How the results depend on the processing

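The lists of 1254 higher and 693 lower transcripts, and of 319 and 165 with whole counts, were within 1.5 times under DESeq2's size factors, edgeR's own filter, a minimum of 50 reads, limma-voom, the second table and the subtraction of heart reads (the last, and library totals without TMM, were chosen after seeing the data). By DESeq2's Wald test 2311 were higher and 1692 lower, and 551 and 436 with whole counts. Library totals without TMM gave 774 and 1868, and 194 and 512. An adjusted p under 0.01 gave 314 and 85, and 110 and 30. Without a filter 362 were lower, and 86 with whole counts. With all 12 libraries in 1 fit 1079 were lower, and 304 with whole counts. Whole-count transcripts fitted alone gave 570 higher and 497 lower. For the response in the heart minus that in the liver, 1214 were higher and 1228 lower by DESeq2's Wald test, and 3 and 10 with the animal as a replicate block.

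With the replicate number as a block, edgeR gave 62 higher and 6 lower transcripts, and 17 and 3 with whole counts. Control and treated mice of 1 number were different animals, not pairs, and the deviations of same-numbered livers correlated at -0.05 to 0.02.

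Leaving out 1 liver gave 456 to 830 higher and 120 to 418 lower, and 123 to 218 and 36 to 88 with whole counts. Without 1 mouse the heart response was higher for 88 to 295 and lower for 139 to 380 transcripts. By share of TPM the 10 most abundant transcripts differed by 3.90 percentage points, with overlap between groups. By share of reads their difference was 0.555 without the 10 transcripts picked for the largest gains, which lowers it by construction. Without 1 liver it was 3.23 to 4.77 percentage points. That of long transcripts was -1.02 to -0.106 and that of whole-count transcripts -1.55 to -0.672 percentage points. Detected transcripts differed by -968 to -335 and total reads by 1281238 to 4133880. The cause of these shifts was not tested, apart from fewer mice or transcripts where the setting removes them. No named transcript changed direction under the alternatives run. The calls of uc007hzh.2 and uc009mhc.2 held in each of 15, that of uc007wsd.1 was lost under the replicate block, and that of uc009dqw.2 was lost in 6 of the 11 in which it was tested, with limma-voom, without a filter, under the block and without each treated liver.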
